A study of Mus musculus with 6 samples.

Results

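The genes for the ionotropic glutamate receptors, the GABA-A receptors and the neurexin-type adhesion proteins of synapses were followed across 6 CUT&RUN peak lists from mouse skeletal muscle. Members were the RefSeq protein-coding genes of chromosomes 1 to 19 (build mm10) whose symbols begin with Gria, Grik or Grin and a digit, Gabra, Gabrb, Gabrg, Gabrd, Gabrp, Gabrr, Nlgn, Nrxn and a digit, or Cntnap, with Grina left out. That rule gave 43 genes of 20661. They comprise 3 AMPA, 5 kainate, 7 NMDA and 16 GABA-A receptor genes, 2 neuroligins, 3 neurexins and 7 genes of the contactin-associated protein (Cntnap) family.

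The study examined PHF2, a histone demethylase with activity on dimethylated lysine 9 of histone H3 (H3K9me2), in gastrocnemius muscle. In the conditional knockout (CKO) the mice were Phf2 flox/flox;Acta1 Cre+, and in the control (Ctrl) Phf2 flox/flox;Acta1 Cre-. All were C57BL/6 males of 4 weeks, and both groups carry the floxed Phf2 alleles. The 6 libraries are H3K9me2 in CKO and in Ctrl, H3K4me3 in Ctrl, and inputs without a named mark, 1 from CKO and 2 from Ctrl. The H3K4me3 library is titled wild type, but its genotype label is Ctrl. The peak names of Ctrl input 1 and of H3K9me2 in CKO cite the same numbered alignment inputs, although the 2 lists differ and those of Ctrl input 1 also end in Ctrl input. Whether files were crossed could not be settled, so every CKO H3K9me2, Ctrl input 1 and input-free value below rests on the labels. The Acta1 promoter drives Cre in skeletal muscle fibres, while gastrocnemius also holds nerve, Schwann, vascular, satellite and connective tissue cells, whose Phf2 is not the target. With 1 library per mark and genotype there is no replicate error and no test between CKO and Ctrl, and whether the libraries come from separate animals is not given. In these bulk samples, fewer cells of a type that carries a mark and less mark per cell cannot be told apart.

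Ionotropic glutamate receptors are cation channels opened by glutamate, and GABA-A receptors are pentameric chloride channels opened by GABA. Together they carry most fast excitation and inhibition in the brain, whereas transmission from motor nerve to muscle in mammals uses acetylcholine receptors. Neurexins on the presynaptic side bind neuroligins on the postsynaptic side, and Cntnap proteins are related to neurexins and organise contacts along axons. H3K4me3 marks active or poised promoters. H3K9me2 lies mostly over silent chromatin, often in broad domains.

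A peak in these lists is a place where CUT&RUN fragments pile up above their local background, and its fold is the authors' value of that excess. The number of fragments at each summit was worked back from the fold and the p-value. On chromosomes 1 to 19 there were 12508 H3K9me2 peaks in CKO and 3595 in Ctrl, 16066 H3K4me3 peaks in Ctrl, 10683 input peaks in CKO, and 2999 and 1277 in the Ctrl inputs. The median peak held 53 fragments for H3K4me3 but 9 for H3K9me2 in CKO, 6 for H3K9me2 in Ctrl and 6 to 7 for the inputs. So an H3K9me2 peak in these lists rests on few fragments, and the CKO lists are longer for the input as well as for the mark. An H3K9me2 peak that overlapped no peak of any input, by 1 bp or more, is called input-free. At muscle genes, H3K4me3 peaks lay within 2 kb of an end of 7 of 10 listed markers (61.0% of all genes), among them Myod1, Myog, Des and Ryr1, but not of Acta1, Ckm or Chrna1. The same held for 3 of 8 neuron markers (Map2, Slc17a7 and Stmn2) and for 3 of 5 Schwann cell markers, so the muscle and Schwann counts are near the share of all genes. Phf2 had 1 H3K4me3 peak (fold 7.81) and none in the other 5 lists, which says nothing of its deletion.

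Long genes dominate the set. Members ranged from 6.79 kb (Grin3b) to 2241 kb (Cntnap2), with a median of 183 kb, against a median of 17.5 kb over all protein-coding genes. A peak in any of the 6 lists, in the gene body or within 2 kb of it, was found at 36 of 43 members (background 72.0% of all genes). Among the 7 members with none were the rho subunits Gabrr1 and Gabrr2, Gabrp, Gabra6 and Cntnap3. Of the GABA-A genes, Gabrr3 had only an input peak, in Ctrl input 2 (fold 5.58).

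**Figure D1:**
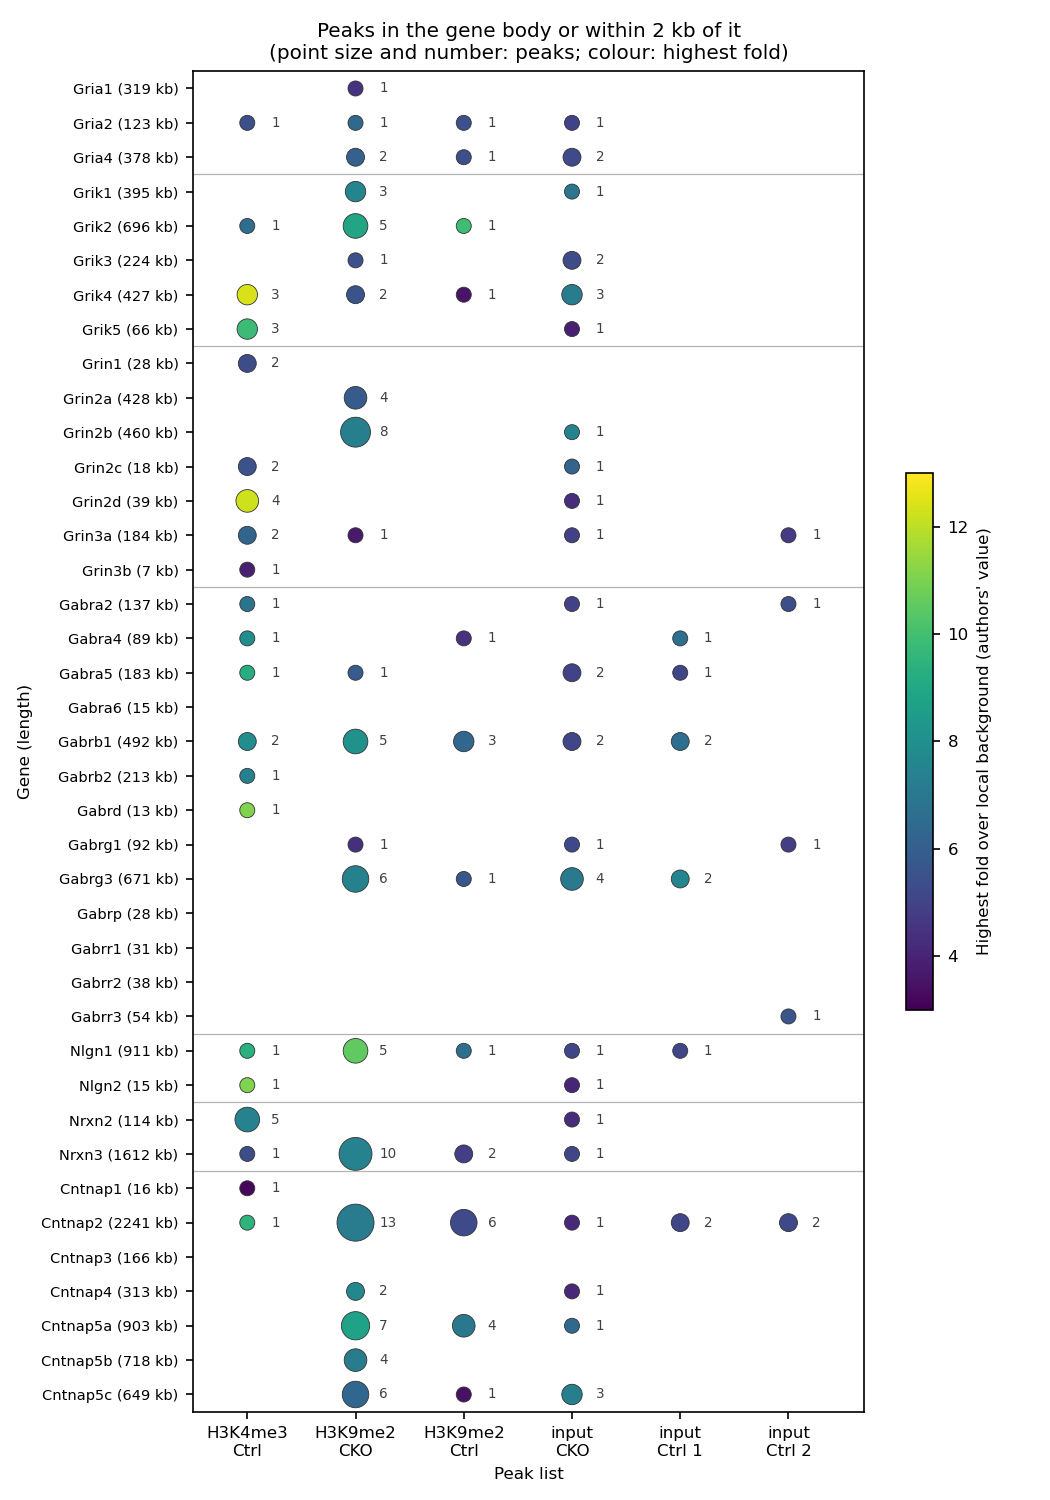
Peaks of each list in the body of 39 of the 43 members or within 2 kb of it. Rows are genes with their lengths, columns are the 6 lists, point size and the number beside it give the peaks, and colour gives the highest fold. Cntnap2 holds 13 H3K9me2 peaks in CKO and 6 in Ctrl, and the rows of Gabra6, Gabrp, Gabrr1, Gabrr2 and Cntnap3 are empty.

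Annotated starts of 28 members are in the RefSeq promoter table for GRCm38.p6, the assembly of mm10, and the windows that the results below turn on are shown here. Each runs 5′ to 3′ on the gene's strand from 250 bases before the start to 50 after it, with CG dinucleotides in capitals. Nlgn2 (chr11:69837735-69838034, minus strand) and Grik4 (chr9:42944322-42944621, minus) had the highest H3K4me3 folds within 2 kb of an annotated start of a member. Gabrb1 (chr5:71657671-71657970, plus) and Gabra4 (chr5:71658259-71658558, minus) overlap at their starts and run across each other, and H3K4me3 and H3K9me2 lie there side by side in Ctrl. The Nrxn3 start (chr12:89812233-89812532, plus) lies deep inside the gene and carried its only H3K4me3 peak, and the Cntnap2 start (chr6:45059811-45060110, plus) met an H3K9me2 peak in Ctrl. Grik3 (chr4:125490446-125490745, plus) and Grin1 (chr2:25319138-25319437, minus) are rich in CG and had no H3K4me3 there. Gabra6 (chr11:42321023-42321322, minus) is poor in CG and had no peak of any kind.
Nlgn2: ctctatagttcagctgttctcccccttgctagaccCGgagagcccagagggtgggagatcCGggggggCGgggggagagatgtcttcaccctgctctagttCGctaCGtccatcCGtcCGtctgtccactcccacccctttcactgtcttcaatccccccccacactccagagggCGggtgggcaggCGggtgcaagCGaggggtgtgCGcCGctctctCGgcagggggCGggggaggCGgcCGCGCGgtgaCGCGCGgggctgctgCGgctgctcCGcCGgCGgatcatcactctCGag
Grik4: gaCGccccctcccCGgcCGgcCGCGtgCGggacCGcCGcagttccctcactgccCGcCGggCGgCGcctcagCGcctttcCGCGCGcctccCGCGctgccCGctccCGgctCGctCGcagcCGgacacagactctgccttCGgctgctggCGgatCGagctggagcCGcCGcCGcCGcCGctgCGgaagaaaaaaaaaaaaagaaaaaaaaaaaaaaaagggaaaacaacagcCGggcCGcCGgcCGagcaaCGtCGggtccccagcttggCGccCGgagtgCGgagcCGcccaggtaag
Gabrb1: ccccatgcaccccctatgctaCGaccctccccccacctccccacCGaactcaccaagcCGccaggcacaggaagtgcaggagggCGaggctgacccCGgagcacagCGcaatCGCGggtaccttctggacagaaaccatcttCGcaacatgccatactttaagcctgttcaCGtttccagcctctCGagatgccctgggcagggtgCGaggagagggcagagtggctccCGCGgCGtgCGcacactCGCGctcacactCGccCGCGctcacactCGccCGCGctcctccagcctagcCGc
Gabra4: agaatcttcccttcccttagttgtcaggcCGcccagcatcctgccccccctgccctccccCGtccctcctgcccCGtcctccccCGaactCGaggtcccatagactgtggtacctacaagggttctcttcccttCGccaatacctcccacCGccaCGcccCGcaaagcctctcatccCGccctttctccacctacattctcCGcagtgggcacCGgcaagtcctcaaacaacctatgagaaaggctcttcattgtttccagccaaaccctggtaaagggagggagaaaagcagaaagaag
Nrxn3: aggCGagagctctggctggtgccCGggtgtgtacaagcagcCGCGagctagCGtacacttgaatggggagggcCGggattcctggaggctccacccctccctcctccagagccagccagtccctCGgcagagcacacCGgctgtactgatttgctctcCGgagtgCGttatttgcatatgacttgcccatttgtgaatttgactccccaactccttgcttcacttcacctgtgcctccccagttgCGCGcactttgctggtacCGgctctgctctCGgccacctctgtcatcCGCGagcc
Cntnap2: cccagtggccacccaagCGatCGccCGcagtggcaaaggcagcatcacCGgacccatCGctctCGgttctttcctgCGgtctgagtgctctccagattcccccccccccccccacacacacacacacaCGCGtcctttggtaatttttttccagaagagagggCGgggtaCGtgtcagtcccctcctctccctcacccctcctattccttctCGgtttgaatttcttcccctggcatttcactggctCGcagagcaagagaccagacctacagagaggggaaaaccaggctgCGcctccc
Grik3: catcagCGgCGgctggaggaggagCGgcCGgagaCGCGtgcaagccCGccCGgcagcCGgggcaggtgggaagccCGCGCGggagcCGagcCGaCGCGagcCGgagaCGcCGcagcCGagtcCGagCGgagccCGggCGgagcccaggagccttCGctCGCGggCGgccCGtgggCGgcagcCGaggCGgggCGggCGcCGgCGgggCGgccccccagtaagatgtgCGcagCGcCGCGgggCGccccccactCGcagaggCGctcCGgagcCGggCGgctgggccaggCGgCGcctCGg
Grin1: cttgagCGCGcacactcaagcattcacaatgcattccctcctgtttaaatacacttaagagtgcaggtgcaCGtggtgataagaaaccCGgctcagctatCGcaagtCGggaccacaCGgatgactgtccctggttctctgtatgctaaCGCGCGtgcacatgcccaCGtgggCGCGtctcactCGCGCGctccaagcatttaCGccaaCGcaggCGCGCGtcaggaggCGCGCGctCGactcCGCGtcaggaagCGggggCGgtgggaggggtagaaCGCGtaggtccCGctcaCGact
Gabra6: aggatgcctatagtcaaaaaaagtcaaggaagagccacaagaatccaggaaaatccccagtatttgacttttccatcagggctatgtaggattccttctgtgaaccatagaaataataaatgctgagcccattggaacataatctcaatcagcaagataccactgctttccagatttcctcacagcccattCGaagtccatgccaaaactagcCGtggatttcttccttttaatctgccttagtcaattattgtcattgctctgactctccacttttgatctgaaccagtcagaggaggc

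H3K4me3 in Ctrl muscle was found within 2 kb of either end of 17 of 43 members (39.5%), below the background of 61.0% of all genes. The distance from background was widest among the longest genes. Under 50 kb, 7 of 11 members had such a peak (background 57.4%). Of 50 to 200 kb it was 6 of 12 (background 73.8%), of 200 to 500 kb 4 of 11 (73.7%), and over 500 kb 0 of 9 (59.5%). The 36 H3K4me3 peaks at members were weak, with a median fold of 6.48 and 14.5 fragments at the median summit, against 10.4 and 59 at all genes. Above 200 kb the medians were 7.62 and 11.5 at members, against 8.86 and 40 at all genes of that length. Of the 36, 12 overlapped an input peak. Counting gene bodies too, 23 of 43 members had H3K4me3 (background 65.5%).

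The rule counts both ends of a gene, and a neighbour's promoter can fall there. Without peaks that also lay at an end of another gene, 8 members remained (background 44.4%): Grik4, Grik5, Grin2c, Grin3a, Gabra2, Gabrb2, Gabrd and Nrxn2. Without peaks on an input peak, 9 remained (background 35.1%): Grik5, Grin1, Grin2c, Grin2d, Grin3b, Gabrb2, Gabrd, Nrxn2 and Cntnap1. Both selections were made after the values were seen. Of the 28 members with an annotated start, 13 had H3K4me3 within 2 kb of one, for Nlgn1 and Nrxn3 at internal starts only. Of all genes with an annotated start, 10177 of 16456 had it. Gria2 is counted by the edge of its peak, whose summit lay 2216 bp from the start. Exons and introns were not used here, so places inside genes are given as distances.

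Among kainate receptor genes, Grik4, a high-affinity subunit that needs Grik1 to Grik3 partners to form channels, had the highest H3K4me3 fold at a member. Its peak (chr9:42943915-42944952) reached fold 12.4 with 59 fragments, 385 bp from the start shown above, and overlapped a peak of the CKO input (fold 4.01, 8 fragments). A further Grik4 peak inside the gene (fold 9.57, 21 fragments) met no input peak. Grik5, the other high-affinity subunit, had a fold of 5.73 with 58 fragments at 529 bp from its start, on a CKO input peak, and a fold of 8.16 with 16 fragments near its other end, free of input. Its highest fold, 9.82 with 99 fragments, lay beside the end of Zfp574. Grik2, which forms channels alone, had a peak only inside the gene (fold 6.54, 11 fragments), 5847 bp from its start. Grik1 and Grik3, which also form channels alone, had none.

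NMDA receptors pair the obligatory glycine-binding subunit Grin1 with glutamate-binding Grin2 or glycine-binding Grin3 subunits. H3K4me3 was listed at 5 of these 7 genes, all but Grin2a and Grin2b, the main Grin2 subunits of the forebrain. Grin2d had 4 peaks. The highest (fold 12.3, 77 fragments) lay at the end of the neighbour Kdelr1, but another (fold 9.63, 42 fragments) lay 364 bp from Grin2d's own start. Grin2c had a peak 436 bp from its start (fold 5.37, 12 fragments), where Fdxr also ends, and another near its other end (fold 5.52, 11 fragments). Grin1 had folds of 5.29 (23 fragments) and 4.15 (17 fragments) at the end away from its annotated start, beside Lrrc26 and Tmem210, and none at the start shown above. Grin3b had a peak of fold 3.86 (8 fragments), where Wdr18 also ends, and Grin3a had 2 (fold 6.20 and 4.43) that both overlapped input peaks. Of the NMDA genes with an annotated start, Grin2d thus had the highest fold near its own start.

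The 3 AMPA receptor genes, which encode the fast glutamate channels, had no H3K4me3 at an end. Gria2, the subunit that limits calcium entry, had 1 weak peak inside the gene (fold 5.40, 7 fragments), 2216 bp from its start.

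Of 16 GABA-A genes, 7 had H3K4me3 at an end. Gabrd, the delta subunit of extrasynaptic receptors, had the highest fold (11.1, 21 fragments, chr4:155397765-155398272), with its summit 0.023 kb from the gene end and no input peak. Gabra5, an alpha subunit, had a peak of fold 9.20 (20 fragments) on a CKO input peak. Gabra4 and Gabrb1 shared a peak (chr5:71657812-71658160, fold 7.88, 12 fragments) 80 bp from the Gabrb1 start shown above, on a peak of Ctrl input 1 (fold 6.56, 9 fragments). Gabrb2 had a fold of 7.36 (10 fragments) with no input peak, and Gabra2 a fold of 6.80 (10 fragments) on peaks of the CKO input and Ctrl input 2. So of 5 distinct peaks at GABA-A gene ends, those of Gabrd and Gabrb2 were free of input. Gabrb1 also had a peak inside the gene (fold 5.40, 7 fragments), 771 bp from a second annotated start.

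Nlgn2, the neuroligin of inhibitory synapses, had the member peak with most fragments: 110 at fold 11.0 (chr11:69837060-69838846), its summit 15 bp from the start shown above. An end of Tmem256 lay in the same peak, and a CKO input peak (fold 4.06, 8 fragments) overlapped it. Nlgn1, the neuroligin of excitatory synapses, had no peak at its ends but 1 inside the gene (fold 9.34, 17 fragments), 832 bp from an internal annotated start and free of input. Nrxn2 had 5 peaks with folds of 4.82 to 7.41, at both ends and inside. Nrxn3 had a single weak peak (fold 5.32, 9 fragments) 123 bp from the internal start shown above, at 67.6% of the gene. Cntnap1, which holds the paranodal contact between axon and Schwann cell, had a fold of 3.18 (43 fragments) beside Ccr10, the lowest fold of all. Cntnap2, which gathers potassium channels beside those contacts, had a peak only far inside (fold 9.45, 14 fragments) that overlapped both Ctrl inputs. The other 5 Cntnap genes had none.

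H3K4me3 was also set beside the CpG content of the starts. The 35 annotated starts of members had a median of 12 CpG sites in the 300 bases, against 14 for the 20084 starts of all genes. With 15 or more sites, 7 of 11 member starts (63.6%) had H3K4me3 within 2 kb, against 95.0% of all such starts. With 5 to 14 it was 8 of 16, against 51.6%, where 3 of the 8 are neighbouring Gabrb2 starts that share a peak, and with 4 or fewer 1 of 8, against 8.56%. The 4 CpG-rich starts without the mark belong to Grik3 (50 sites), Grin1 (33), Grik2 (26) and Gria4 (17). The letters NNCAGCACC, read on both strands as part of the site of the neuronal gene repressor REST, occurred in 2 of 35 member windows (5.71%), at Cntnap5b and the internal start of Nlgn1, against 7.26% of all windows.

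**Figure D2:**
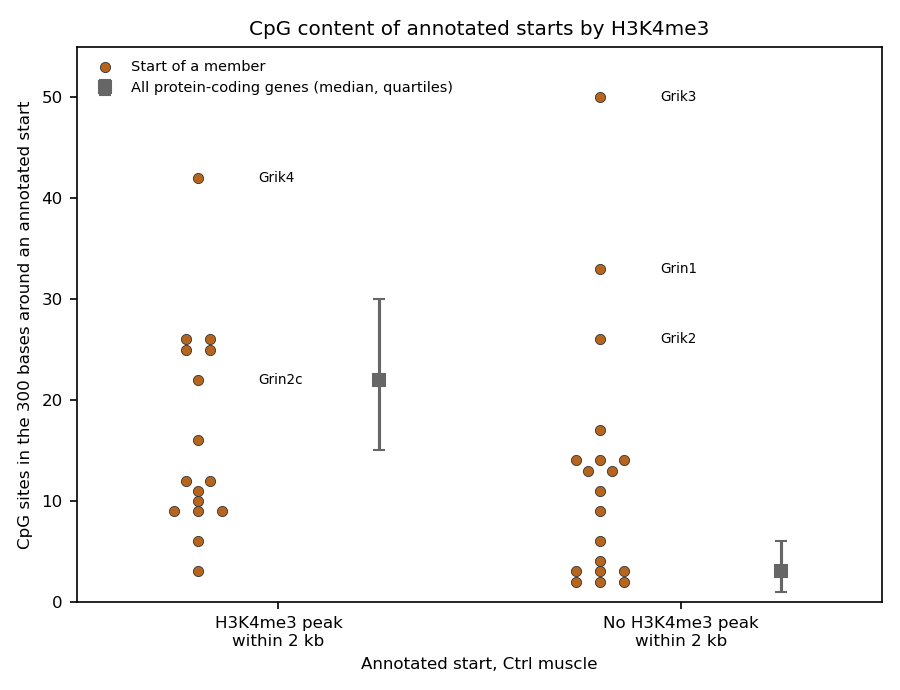
CpG sites in the 300 bases around each annotated start of a member (circles), by whether an H3K4me3 peak lay within 2 kb in Ctrl muscle. Squares with bars give the median and quartiles of all protein-coding genes, 22 sites with the mark and 3 without. Grik3, Grin1 and Grik2 stand high among starts without the mark.

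H3K9me2 was listed at more members in CKO than in Ctrl. Input-free peaks lay in the body or within 2 kb of 19 of 43 members in CKO (44.2%; background 9.82%) and of 9 of 43 in Ctrl (20.9%; background 3.25%). Both shares follow gene length. In CKO, 0 of 11 members under 50 kb had a peak (background 5.28%), 1 of 12 of 50 to 200 kb (16.8%), 9 of 11 of 200 to 500 kb (49.8%) and 9 of 9 over 500 kb (87.9%). In Ctrl, the counts were 0 of 11, 1 of 12 (background 4.5%), 1 of 11 (22.2%) and 7 of 9 (55.3%). Above 200 kb, 18 of 20 members had an input-free peak in CKO (background 58.5%) and 8 of 20 in Ctrl (background 29.8%). Much of the distance between members and all genes is thus also seen between long genes and all genes.

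**Figure D3:**
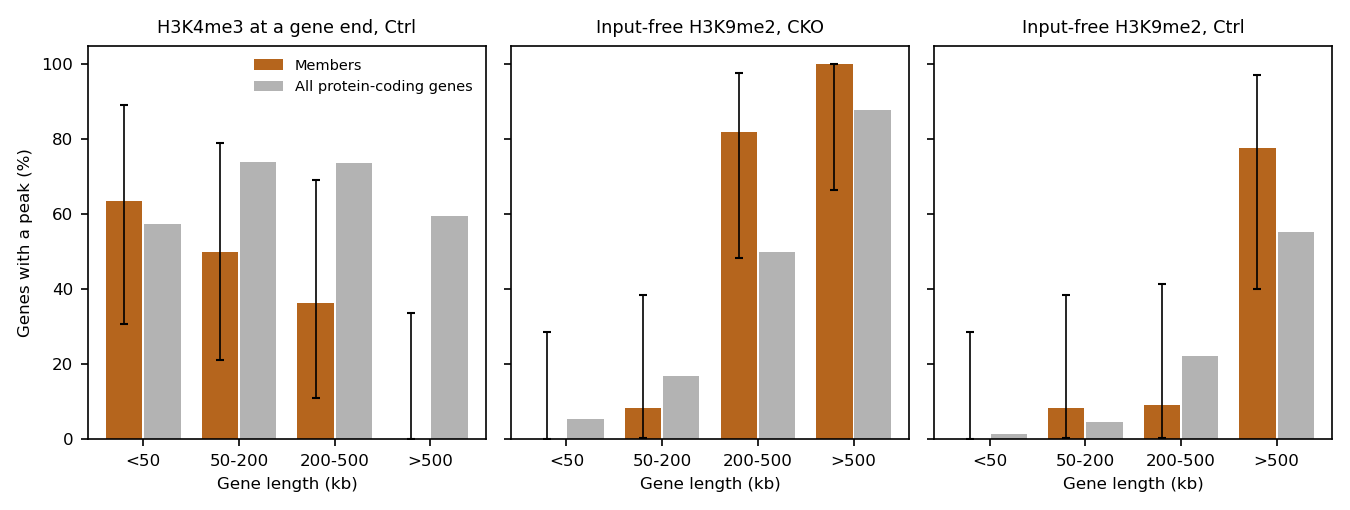
Share of members (brown, with exact 95% binomial intervals for counting error) and of all protein-coding genes (grey) with a peak, by gene length. The panels give H3K4me3 at a gene end in Ctrl, and input-free H3K9me2 in CKO and in Ctrl. Over 500 kb, 0 of 9 members had H3K4me3 at an end and 9 of 9 had H3K9me2 in CKO.

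Per length, members held 74 input-free H3K9me2 peaks in CKO, 4.90 per Mb (exact 95% Poisson interval 3.85 to 6.15), and 17 in Ctrl, 1.12 per Mb (0.66 to 1.80). All genes held 2.89 per Mb in CKO and 0.74 in Ctrl, and the sequence outside genes 4.84 and 1.37. Members therefore had about the density of the sequence between genes. Members of 200 to 500 kb had 5.60 per Mb in CKO (3.51 to 8.47), against 3.20 (2.97 to 3.44) for all genes of that length. Of the 22 peaks behind that value, 8 lay in Grin2b alone, and the density without this gene was not taken. Members over 500 kb had 5.37 (4.00 to 7.06), against 4.66 (4.35 to 4.98). In Ctrl the same classes had 0.76 and 1.47 per Mb, against 0.90 and 1.16 for all genes. Intervals cover counting error only, and no test between members and other genes was made.

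At most members above 200 kb, input-free H3K9me2 was listed in CKO and no H3K4me3 at an end in Ctrl. The 2 marks come from different genotypes here, since H3K4me3 was profiled in Ctrl alone. In Ctrl, 8 of 20 had input-free H3K9me2 (background 29.8%). Counting gene bodies too, 9 of 20 had H3K4me3 (background 84.1%). Above 200 kb, 16 of 20 had input-free H3K9me2 in CKO and no H3K4me3 at an end (background 22.6%), and 2 of 20 had both (background 35.9%). Over all lengths, 16 of 43 had H3K9me2 in CKO without H3K4me3 at an end (background 4.07%), 3 of 43 had both (5.75%), 13 of 43 had H3K4me3 and no input-free H3K9me2 in either genotype (54.3%), and 10 of 43 had neither (34.4%). The 3 with both were Grik4, Grin3a and Gabrb1. None of the 74 CKO peaks or 17 Ctrl peaks overlapped an H3K4me3 peak, against 19.3% and 17.6% of the input-free H3K9me2 peaks at all genes. H3K4me3 peaks were sparser at members, with 2.38 per Mb against 13.6 at all genes. Above 200 kb, where 73 of the 74 lay, it was 0.89 against 3.28. The overlap share in other genes of that length was not taken.

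In the NMDA family, Grin2b, a subunit of early brain development, held 8 input-free H3K9me2 peaks in CKO and 0 in Ctrl, over 460 kb (chr6:135713221-136173615). That is 17.2 per Mb in CKO (7.4 to 33.9) and 0 in Ctrl (0 to 7.94), so the intervals overlap. All genes of 200 to 500 kb had only 0.90 per Mb in Ctrl. The folds in CKO ran from 3.48 to 7.28 with 5 to 13 fragments. Grin2a, its relative on chromosome 16, held 4 in CKO (folds 4.06 to 5.83) and 0 in Ctrl. That is 9.3 per Mb in CKO (2.5 to 23.7) and 0 in Ctrl (0 to 8.54). Grin3a held 1 in CKO (fold 3.70, 7 fragments) and 0 in Ctrl, and the 4 shorter NMDA genes held none. With all 13 peaks in CKO and none in Ctrl, the NMDA genes had 10.9 per Mb in CKO (5.80 to 18.6). Grin2b had an input peak only at its end in CKO (fold 7.47, 11 fragments), the highest input fold of CKO at a member.

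Kainate genes held 9 input-free peaks in CKO and 1 in Ctrl. Grik2 had 5 in CKO, with folds of 4.42 to 8.88, and 1 in Ctrl (chr10:49444412-49444789, fold 9.87, 15 fragments), the highest H3K9me2 fold of any member in Ctrl. The Grik2 peak of Ctrl matched none of those in CKO, and no input peak lay in the gene. Grik1 had 2 in CKO (folds 6.91 and 5.52) and 0 in Ctrl, Grik3 and Grik4 had 1 each in CKO (folds 5.45 and 5.58) and 0 in Ctrl, and Grik5 had none. Grik4 also had a place near its far end where H3K4me3 (fold 6.42), H3K9me2 in CKO (4.47), H3K9me2 in Ctrl (3.51) and the CKO input (7.12) all peaked. AMPA genes held 2 in CKO, at Gria1 (fold 4.44) and Gria4 (6.08), and 0 in Ctrl. At Gria2 and Gria4 H3K9me2 was also listed on a CKO input peak in both genotypes, with folds of 6.38 and 5.31 in CKO and 5.44 and 5.41 in Ctrl. CKO and Ctrl shared the place at Gria2 but not at Gria4.

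GABA-A genes held 7 input-free peaks in CKO and 4 in Ctrl, in only 3 genes. Gabrb1 had 3 in each, with folds of 4.34, 5.80 and 8.04 in CKO and of 4.41, 6.30 and 4.21 in Ctrl. Gabrg3 had 4 in CKO, with folds of 3.76 to 5.84, and 1 in Ctrl (fold 5.67), besides a CKO peak of fold 7.36 at its lower-coordinate end on a peak of Ctrl input 1 (fold 7.55). Gabra4 had 0 in CKO and shared a Ctrl peak with Gabrb1 (chr5:71658166-71658551, fold 4.41, 6 fragments). It was the only member with an input-free peak in Ctrl and none in CKO (1 of 43; background 1.43%). That peak lies over the Gabra4 window shown above, next to but not overlapping the H3K4me3 peak over the Gabrb1 window. Gabra5 had 1 H3K9me2 peak in CKO (fold 5.89) and Gabrg1 had 1 (fold 4.40), each on a CKO input peak, and both had 0 in Ctrl.

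The adhesion genes held most of the peaks, but they also make up most of the member length. Per Mb, input-free CKO peaks numbered 4.28 at neuroligins and 4.97 at Cntnap genes, near the 4.90 of all members. Neuroligins had 4 input-free peaks in CKO and 1 in Ctrl, and Cntnap genes 25 in CKO and 8 in Ctrl. Nlgn1 had all of those of the neuroligins, and its strongest (chr3:25730945-25731449) had fold 10.5 with 21 fragments in CKO. Nrxn3 had 10 in CKO, with folds of 5.04 to 7.41, and 2 in Ctrl at folds of 4.48 and 4.80, while Nrxn2 had 0 in either. Cntnap2, the longest member (chr6:45060061-47301393), had 11 in CKO, with folds of 3.88 to 7.16, and 5 in Ctrl, with folds of 3.51 to 5.03. Cntnap5a had 6 in CKO and 3 in Ctrl, and reached fold 8.75 (16 fragments) in CKO and 7.02 (9 fragments) in Ctrl. Its paralogs Cntnap5b and Cntnap5c had 4 and 3 in CKO and 0 in Ctrl, and Cntnap4 had 1 in CKO (fold 7.66) and 0 in Ctrl. Cntnap1 and Cntnap3 had none. The labels do not say how reads that fit more than 1 place were treated, which bears on paralogs such as the 3 Cntnap5 genes.

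**Figure D4:**
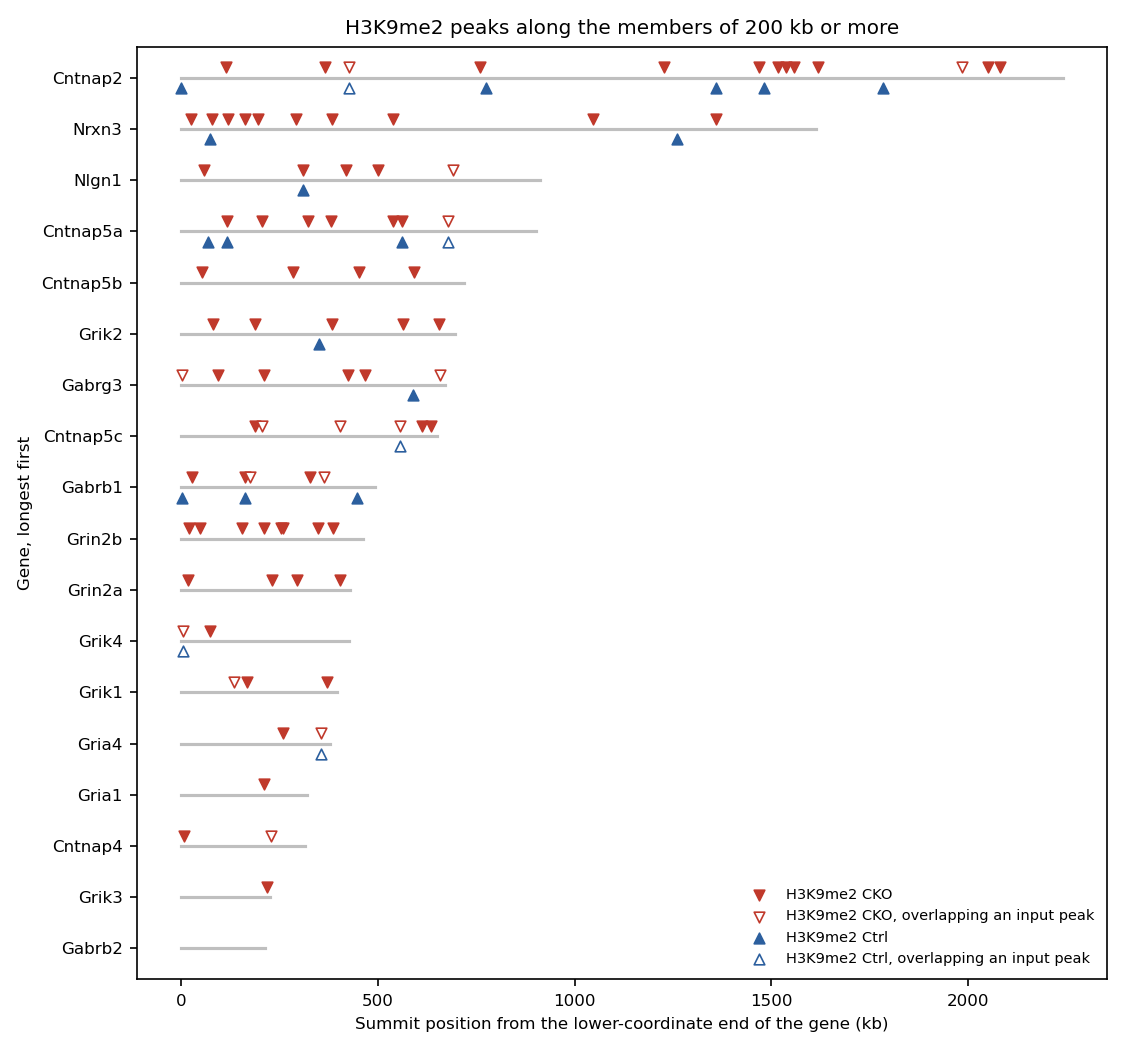
Summits of H3K9me2 peaks along 18 of the 20 members of 200 kb or more, in kb from the lower-coordinate end, with CKO above each gene line and Ctrl below it. Open symbols overlap an input peak. CKO peaks lie throughout the bodies, with 8 in Grin2b and none of Ctrl there, and few places have a symbol on both sides.

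No input-free CKO peak of a member had its summit near a gene end, but such peaks were few in all genes too. Of the 74 input-free CKO peaks, 0 had a summit within 2 kb of an end, against 3.82% of peaks in all genes over 200 kb, and 56.8% lay in the middle 60% of their gene, against 57.3% in those genes. By overlap, 0 of 43 members had an input-free CKO peak within 2 kb of an end (background 4.46%), and 3 of 43 had a Ctrl peak there (background 1.11%). The 3 were Gabra4 and Gabrb1, with their shared peak, and Cntnap2, whose Ctrl peak (chr6:45059614-45060215, fold 4.31, 5 fragments) lay 305 bp from the start shown above. Both of these Ctrl peaks rest on 5 or 6 fragments.

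Of the 43 members, 8 had input-free H3K9me2 in both genotypes (background 1.82%), 11 in CKO alone (background 8.0%) and 1 in Ctrl alone. These shares too go with gene length. Above 200 kb, 8 of 20 members had it in both genotypes (background 23.9%) and 10 of 20 in CKO alone (background 34.5%). Of 200 to 500 kb, 1 of 11 had it in both (background 15.8%) and 8 of 11 in CKO alone (34.0%). Over 500 kb it was 7 of 9 (51.6%) and 2 of 9 (36.3%). The same places were rarely listed in both. Only 4 CKO peaks overlapped a Ctrl peak, 5.41% of the 74 in CKO (exact 95% binomial interval 1.49 to 13.3) and 23.5% of the 17 in Ctrl (6.81 to 49.9), against 6.35% and 24.9% at all genes. At Nlgn1 the shared place had fold 10.5 (21 fragments) in CKO and 6.62 (12 fragments) in Ctrl. At Cntnap5a the shared places had folds of 5.04 and 7.74 in CKO and of 6.52 and 7.02 in Ctrl. At Gabrb1 the shared place had 9 fragments in each, with fold 5.80 in CKO and 6.30 in Ctrl. At these 4 places 2 folds are higher in CKO and 2 in Ctrl. Shared places on input peaks, at Cntnap5a, Gria2, Cntnap2, Grik4 and Cntnap5c, each had the higher fold in CKO. Each fold is over the local background of its own library, so folds of the 2 libraries are not on 1 scale.

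The difference in number between genotypes has no error, and other lists moved with it. Members had 4.35 times as many input-free H3K9me2 peaks in CKO as in Ctrl, all genes 3.92 times and the whole lists 3.64 times. Inputs at members had 36 peaks in CKO and 9 and 6 in the Ctrl inputs, so the CKO input had 4.0 and 6.0 times as many. The lowest local background of the H3K9me2 list was 1.39 times as high in CKO as in Ctrl. With both input-free lists cut to the same number of peaks, those of lowest q, members kept 20 peaks in CKO and 17 in Ctrl, in 11 and 9 genes. The part of input level and depth in the CKO and Ctrl counts was not tested. Divided by 1.39, the counts of 36 of the 70 CKO peaks with no Ctrl partner reach 6 fragments, the Ctrl median. For 68 they reach 4, the fewest of a Ctrl peak. This cannot say whether Ctrl would list them. The 70 were picked as listed in CKO, the ratio was not checked as a measure of depth, and 4 fragments need not make a peak. The 13 Ctrl peaks with no CKO partner had 4 to 15 fragments and lay a median of 51.0 kb from the nearest CKO peak.

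Input peaks were listed in the body or within 2 kb of 25 of 43 members in CKO (background 34.8%), 8 in Ctrl input 1 (10.1%) and 5 in Ctrl input 2 (4.56%). The CKO shares were near those of all genes of like length. Under 50 kb, 3 of 11 members had a CKO input peak (background 26.9%). Of 50 to 200 kb it was 7 of 12 (57.9%), and above 200 kb 15 of 20 (74.3%). Above 200 kb, 6 of 20 had a peak of Ctrl input 1 (background 29.98%) and 1 of 20 of Ctrl input 2 (12.4%). Of 50 to 200 kb, 4 of 12 had a peak of Ctrl input 2 (8.86%). At gene ends, over all lengths, the counts were 11 (background 27.9%), 5 (7.56%) and 2 (3.41%). Of the H3K9me2 peaks at members, 18 of 92 in CKO and 6 of 23 in Ctrl overlapped one. At Gria2 the only H3K9me2 peak of each genotype lay on a CKO input peak. At Cntnap5c, 3 of 6 CKO peaks and the only Ctrl peak did, the highest input fold being 7.30. Grik3 and Gria4 had CKO input peaks near their annotated starts (folds 5.28 and 5.26), where neither had H3K4me3.

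Among 43 other synapse genes, listed as metabotropic receptors, scaffolds, transporters and GABA synthesis enzymes, 24 had H3K4me3 at an end (background 61.0%), 15 had input-free H3K9me2 in CKO (9.82%) and 6 in Ctrl (3.25%). Their median length was 72.9 kb. Grid1 (763 kb), a delta-type glutamate receptor relative outside the member symbols, had 10 CKO peaks with a highest fold of 9.27. Grip1 (634 kb), which anchors AMPA receptors, had 5 in CKO up to fold 10.1 and 1 in Ctrl. Dlg2 (1973 kb), a scaffold of the postsynaptic density, had 7 in CKO and 3 in Ctrl. Grm8 (860 kb) had 3 in each genotype, Grm3 had 1 in each, and Cacng3 had 1 in Ctrl alone.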

How the data were processed

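CUT&RUN of gastrocnemius muscle was deposited as 6 MACS2-type peak lists, 1 per library, and no reads or coverage tracks were used. Per the submitters' processing notes, Bowtie2, MACS2 and mm10 were used. Not given in the sources used here: versions, settings, and whether an input served as control. The values are the authors': the deposited score, the deposited fold over local background (a ratio), the deposited −log10 p and −log10 q, and the summit offset. All listed q-values are at or below 0.05.

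Peak positions were written 1-based. A peak was given to a gene by 1 bp of overlap with the RefSeq gene (GRCm38.p6) or 2 kb either side. Summit fragments n and background b were solved from fold = (n + 1)/(b + 1) and the Poisson p, within 0.1%. Gene calls, overlaps and this solution were tested on simulated data. With 1 library per mark and genotype, counts were described with exact intervals (95%, counting error only) and no test was made. Background shares are over all 20661 genes and by gene length. Computation used scipy 1.17.1, pandas 2.3.3 and numpy 2.4.6 under Python 3.11.15, with figures from matplotlib 3.10.9.

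Named with values were members with H3K4me3 at an end, with H3K9me2 in both genotypes or with an input peak, and in each H3K9me2 list the 10 with most peaks and the 10 with the highest fold. Values of 4 members are counted but not reported here by gene. Of the 43 members, 28 matched a RefSeq start. Members and lists were chosen with earlier results of these data known. Other thresholds, windows, input removal and list lengths were tried.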

Additional observations from a re-analysis of the deposited data

How the results depend on the processing

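Of 67 alternative values, 49 stayed within 1.5 times the value reported and 18 did not; the cause was not tested. Only peaks of q at or below 1e-05 left 28 H3K9me2 peaks in CKO and 4 in Ctrl, 3 Ctrl members, 2 shared places, and 7, 3 and 0 members with an input peak (CKO, Ctrl 1, Ctrl 2). Only peaks at or above their list's median fold left 44 H3K9me2 peaks in CKO and 7 in Ctrl, 4 members with H3K4me3, and 13 and 3 members with a peak of the CKO input and Ctrl input 2. Keeping peaks on input gave 9 shared places. Lists of equal length gave 20 CKO peaks in 11 members and 2 shared places. Added after seeing the data, H3K4me3 without another gene's end gave 8 members, and without an input peak 9. Leaving out either Ctrl input gave 74 to 75 CKO peaks in 19 members, 17 Ctrl peaks in 9 members and 4 shared places. Other windows, gene bodies alone and same-genotype inputs stayed within 1.5 times.

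No paired analysis was possible because each mark and genotype has 1 library and only the Ctrl input has 2. With medians of 6 to 9 fragments at H3K9me2 summits, a place listed in CKO and not in Ctrl cannot be told apart from a place below the depth of Ctrl, and an unlisted peak is not a measured absence. Peak lists give no signal between peaks, so broad H3K9me2 over a member is not measured.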

Other observations

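Relatives on the X chromosome lie outside the rule and all samples were male. Gabre, the epsilon subunit of GABA-A receptors, had an H3K4me3 peak of fold 12.4 in Ctrl and an input peak of fold 4.20 in CKO. Gria3, an AMPA receptor subunit, had an H3K4me3 peak of fold 4.72 in Ctrl and no H3K9me2 peak in Ctrl. In CKO it had an H3K9me2 peak of fold 3.33 (chrX:41482583-41482929). That peak lay right beside a CKO input peak of fold 4.83 (chrX:41482993-41483382), and counts as input-free only because they do not overlap. Gabra3 had an input-free H3K9me2 peak of fold 8.18 in Ctrl, and in CKO an H3K9me2 peak of fold 4.52 on a CKO input peak of fold 4.38. Gabrq and Nlgn3 had no peak in any list.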
